A study of Mus musculus with 9 samples.

Results

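The genes described here encode the parts of the mitochondrial respiratory chain that are made from nuclear DNA. They were taken by name: every gene whose symbol begins with Ndufa, Ndufb, Ndufc, Ndufs, Ndufv, Uqcr, Atp5 or Cox followed by a digit from 4 to 8, together with Sdha, Sdhb, Sdhc and Sdhd. The rule found 94 of the 32285 genes measured. By role these were 7 core subunits, 30 accessory subunits and 8 assembly factors of complex I, 4 subunits of complex II, 8 of complex III, 20 of complex IV and 17 of complex V. Ndufa4 and Ndufa4l2 were counted with complex IV, where the protein of Ndufa4 is now placed.

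Expression was measured by droplet-based single-nucleus RNA sequencing of epididymal adipose tissue (epiAT) from male C57BL/6J mice, with 1 library for each diet group and nuclei of 5 mice pooled in each. The 3 control libraries, C, CC and CCC, came from mice kept on chow to 18, 26 and 39 weeks of age (the description of the series calls the control diet low fat). High-fat diet (HFD) had been fed to H mice for 12 weeks, when they were 18 weeks old, and to HH mice for 25 weeks, at an age of 31 weeks. Mice of the weight loss (WL) libraries returned to chow for 8 weeks at the end of the same exposures: HC (26 weeks of age) had received HFD for 12 weeks and HHC (39 weeks of age) for 25 weeks. CCH mice received HFD for 4 weeks for the first time and HCH mice received it again for 4 weeks after 12 weeks of HFD and 8 weeks of chow, and both were 30 weeks old. No allele or transgene was involved. Because each diet group had a single pool, C, CC and CCC were treated as replicates of chow, H and HH of HFD, and HC and HHC of WL, although they differ in age and in weeks on diet. The p-values below then measure the spread between these pools and not between mice.

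The respiratory chain passes electrons from NADH (complex I) and succinate (complex II) through complex III to oxygen at complex IV, and the proton gradient built on the way drives ATP synthesis by complex V. A few subunits of complexes I, III, IV and V are encoded by mitochondrial DNA (mtDNA), whereas complex II is encoded by the nucleus alone, so most of the chain depends on transcripts made in the nucleus and translated in the cytosol. In white adipocytes the chain supports lipid synthesis and storage, and genes for it are known to be controlled together by the factors NRF1, GABP, YY1 and the oestrogen-related receptors with their coactivator PGC-1α.

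Promoters are shown first, because sites for a few common factors are what this gene class is known for. RefSeq promoters of 300 bases, 250 before and 50 after each start (GRCm38.p6), were matched for 77 of the 94 genes (82 promoters). The NRF1 letters GCGCANGCG, searched on both strands, lay in 23 of these promoters (28.0%) and in 6.25% of all 32851 promoters. The ETS letters CCGGAAG, which GABP recognises, lay in 23.2% against 8.86%, the YY1 letters AANATGGCG in 13.4% against 2.38%, the oestrogen-related receptor letters TNAAGGTCA in 3.66% against 1.28%, and the general CCAAT box in 42.7% against 37.4%. Member promoters also held more G and C (median 58.5% against 52.7%), and the NRF1 and ETS letters are themselves rich in both bases. The following 3 genes are among those that rose on HFD in adipocyte-, macrophage- and progenitor-gated nuclei alike. They are printed from 250 bases before the start up to the first annotated exon, 5′ to 3′ on the strand of the gene and with matches to the searched letters in capitals.
Ndufaf4 (chr4:24897833-24898082, plus strand): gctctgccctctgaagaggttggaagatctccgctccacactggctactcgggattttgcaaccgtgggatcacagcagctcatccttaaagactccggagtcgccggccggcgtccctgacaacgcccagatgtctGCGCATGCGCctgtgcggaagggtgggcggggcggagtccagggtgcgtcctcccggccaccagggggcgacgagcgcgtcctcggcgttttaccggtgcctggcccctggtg
Ndufa6 (chr15:82354323-82354541, minus strand): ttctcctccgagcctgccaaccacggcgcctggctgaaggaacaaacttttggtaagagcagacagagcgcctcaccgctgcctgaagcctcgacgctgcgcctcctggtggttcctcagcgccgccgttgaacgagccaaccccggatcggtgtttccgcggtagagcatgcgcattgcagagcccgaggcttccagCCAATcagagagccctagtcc
Uqcr10 (chr11:4704345-4704594, minus strand): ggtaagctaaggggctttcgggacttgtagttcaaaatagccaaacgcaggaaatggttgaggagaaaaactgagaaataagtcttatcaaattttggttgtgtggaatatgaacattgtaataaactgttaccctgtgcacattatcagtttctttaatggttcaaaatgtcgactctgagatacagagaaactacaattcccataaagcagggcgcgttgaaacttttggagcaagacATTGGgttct
In Ndufaf4 the capitals are an NRF1 match that reads on both strands, the matches on the plus and minus strand overlapping each other at 113 and 112 bases before the start. In Ndufa6 they are a CCAAT box 52 bases before the start, and in Uqcr10 a CCAAT box read on the other strand 10 bases before the start. These are matches of letters and not measured binding.

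The libraries held 22599619 to 66615262 UMIs (unique molecular identifiers, 1 for each RNA molecule captured) over 5173 to 14833 barcodes, and 4007 to 12561 nuclei were kept. Pairs of libraries shared under 0.5% of the barcodes of the smaller one. Nuclei were assigned to cell classes by marker genes that are not members, and 64.8% to 84.8% of kept nuclei received a class. Adipocyte-gated nuclei numbered 2738, 955 and 1931 on chow (C, CC, CCC), 193 and 435 on HFD (H, HH), 846 and 595 after WL (HC, HHC), 730 in CCH and 427 in HCH. Macrophage-gated nuclei numbered 398 to 4941 and progenitor-gated nuclei 628 to 2981. All 12 adipocyte markers were detected in adipocyte-gated nuclei, all 12 macrophage markers in macrophage-gated nuclei and all 10 progenitor markers in progenitor-gated nuclei of each library. Adipocyte marker RNA was also present in other classes: the adipocyte markers summed to 20301 to 44206 CPM in adipocyte-gated nuclei, but still to 2138 to 6186 CPM in macrophage-gated nuclei on chow and to 341 and 504 CPM there in H and HH. CPM is the usual counts-per-million scale, here UMIs over all UMIs of that class and library, with mitochondrial genes and Malat1 left out of the total. In a class sum, a change in RNA per nucleus and a change in the mix of nuclei within the gate cannot be told apart.

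The summed level of the 94 genes differed more between libraries than between adipocytes, macrophages and progenitors of 1 library. In adipocyte-gated nuclei it was 2407, 2429 and 2772 CPM in C, CC and CCC, against 4423 CPM in H and 4347 CPM in HH. HC and HHC were at 1990 and 3048 CPM, CCH at 2332 and HCH at 4044 CPM. Both libraries of long HFD and the library of renewed HFD thus stood above all others, while the 4-week first exposure to HFD stood below the 3 chow libraries. In macrophage-gated nuclei the order was similar, with 1850, 2620 and 2123 CPM in C, CC and CCC, 3282 and 3572 in H and HH, 1732 and 2650 in HC and HHC, 2003 in CCH and 3477 in HCH. Progenitor-gated nuclei gave 1859, 2532 and 2233 CPM in C, CC and CCC, 2968 and 3457 in H and HH, 1749 and 2520 in HC and HHC, 1917 in CCH and 3334 in HCH.

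**Figure D1:**
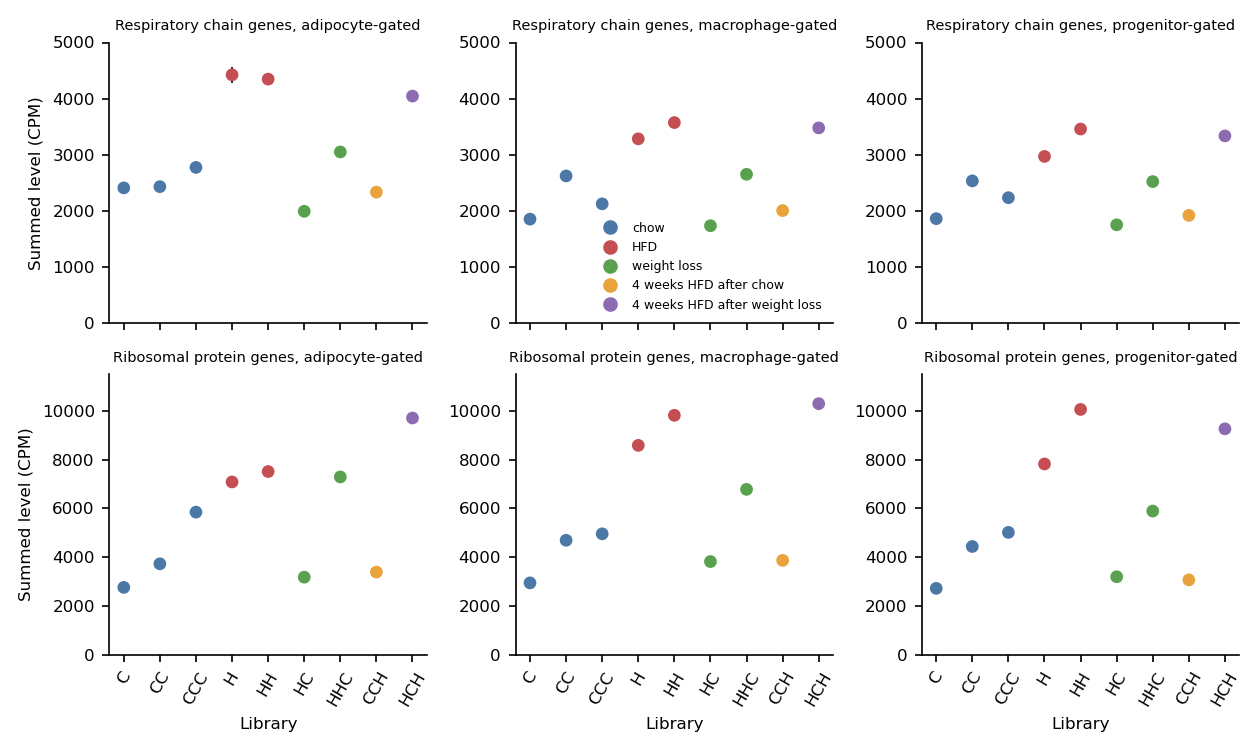
Summed level (CPM, linear axis) of the 94 respiratory chain genes (top) and of 97 genes taken by name as ribosomal protein genes (bottom) in each library, for adipocyte-, macrophage- and progenitor-gated nuclei. Points are single libraries coloured by diet state, and bars (mostly hidden by the points) are exact 95% Poisson intervals that cover counting error only. H, HH and HCH lie between 4044 and 4423 CPM in adipocyte-gated nuclei and the other 6 libraries between 1990 and 3048 CPM, and the ribosomal protein genes are also high in H, HH and HCH.

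Set against the control that the study matched to each diet group, the summed level in adipocyte-gated nuclei was 0.88 higher on the log2 scale in H than in C (95% interval 0.83 to 0.93), 0.84 higher in HH than in CC (0.80 to 0.88) and 0.79 higher in HCH than in CCH (0.75 to 0.84). In HCH the adipocyte-gated nuclei also held more progenitor marker RNA (1571 CPM, against 587 in CCH) and macrophage marker RNA (1098 against 695 CPM), and their part was not tested. HH was 5 weeks older than CC, and the other pairs were of equal age. The intervals are exact, conditional on the total, and cover counting error only. Each group had 1 library, so these pairs carry no test. H over C was 0.50 with totals scaled by TMM factors, and HCH over CCH was 0.34 with no upper limit on genes per nucleus and no doublet removal. Of the members with at least 20 UMIs over both libraries together, 46 of 87 were at least 2-fold higher in H than in C, where 25.9% of all such genes were. The same held for 38 of 86 in HH over CC, with 25.1% of all genes, and for 45 of 85 in HCH over CCH, with 15.7% of all genes. The median log2 difference in these pairs was 1.06, 0.86 and 1.06 over the members and 0.26, 0.17 and 0.15 over all genes. Among genes spanning under 10 kb the medians were 1.47, 1.10 and 1.31 over the members and 1.07, 1.21 and 0.67 over all genes. Among longer genes they were 0.33, 0.35 and 0.34 over the members and 0.09, 0.001 and 0.06 over all genes. The 2-fold counts were not set against genes of like span.

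By their labels the libraries fall into a pair of sets, S075 with C, H, HH, CCH and HCH and S019 with CC, CCC, HC and HHC. HH compared with C, both of set S075, gave a difference of 0.85 (0.82 to 0.89), against 0.84 with CC of the other set. The 5 adipocyte-gated sums of set S075 alone were 2407 and 2332 CPM without HFD or on a first short HFD, and 4423, 4347 and 4044 CPM on long or renewed HFD. Set S019 held no HFD library. Ribosomal protein genes, measured beside them as another large class of mostly short housekeeping genes, were taken by name (Rpl or Rps followed by a digit). This rule also takes in kinase genes with such names and leaves out ribosomal protein genes named otherwise. Of the genes so named, 4 of those tested in adipocyte-gated nuclei spanned over 100 kb, with a median log2 fold change of −0.53 on HFD. The set differed by 1.36 (H over C), 1.01 (HH over CC) and 1.52 (HCH over CCH) on the log2 scale in the same nuclei. The 13 respiratory chain genes of mtDNA differed by 1.64, −0.17 and 1.20 in these pairs, and mtDNA transcripts are not nuclear RNA. In adipocyte-gated nuclei there were 87.1, 65.1 and 47.4 member UMIs per 100 ribosomal protein UMIs on chow (C, CC, CCC), 62.4 and 57.8 on HFD (H, HH) and 41.6 in HCH, so relative to the ribosomal protein genes the members were lower in H than in C, in HH than in CC and in HCH than in CCH (68.8).

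HFD was then compared with chow gene by gene, with edgeR's quasi-likelihood test on summed counts and Benjamini-Hochberg adjustment over all genes tested. In adipocyte-gated nuclei 13 of the 90 members tested rose on HFD and 0 fell, where 7.08% of all genes rose. The 13 include Cox8b, which passed the filter on low counts only through H and HH. The median log2 fold change over the members was 0.68, over all genes −0.08 and over the ribosomal protein genes 0.90. For 69 of the 90 members both HFD libraries lay above all 3 chow libraries, which held for 32.1% of all genes tested. In macrophage-gated nuclei 20 of 93 members rose and 1 fell, where 17% of all genes rose and 14.7% fell (member median 0.63, ribosomal protein median 1.33), and 53 members did not overlap upwards, against 37% of all genes. In progenitor-gated nuclei 12 of 89 rose and 0 fell, where 8.92% of all genes rose (member median 0.44, ribosomal protein median 1.14), and 52 did not overlap upwards, against 36.3%. The share of members called was thus 14.4% in adipocyte-gated, 21.5% in macrophage-gated and 13.5% in progenitor-gated nuclei. The chow libraries held more adipocyte marker RNA in macrophage-gated nuclei than H and HH (above), and its part in these folds was not tested. In progenitor-gated nuclei the 12 macrophage markers, all detected in each library, summed to 335 to 494 CPM on chow and to 1429 and 1568 CPM in H and HH, and the adipocyte markers to 2523 to 6049 CPM on chow and to 1281 and 1274 CPM in H and HH. In adipocyte-gated nuclei the macrophage markers were at 612 to 972 CPM on chow and at 970 and 838 CPM in H and HH. The nuclear transcript Malat1 took 3.07% to 5.21% of UMIs in the chow libraries and 8.85% and 8.72% in H and HH. The part of these differences in the rise of the members was not tested.

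The HFD calls rested on both HFD libraries. Without H, 0 members rose in adipocyte-gated nuclei, 4 in macrophage-gated nuclei (4.4%, where 7.03% of all genes rose) and 1 in progenitor-gated nuclei (1.12% against 1.23%). Without HH, 0 rose in adipocyte-gated and 3 in macrophage-gated nuclei (3.3% against 6.37%), and 0 in progenitor-gated nuclei, where 0.926% of all genes rose. In adipocyte-gated nuclei 5 of 15637 genes rose without H and 6 of 15598 without HH. These fits leave 1 library on HFD, and their member medians were 0.73, 0.71 and 0.53 without H and 0.64, 0.49 and 0.36 without HH in the 3 classes, against 0.68, 0.63 and 0.44 with both. The median moved most without CC, to 0.76 in progenitor-gated and 0.87 in macrophage-gated nuclei, and it moved to 0.40 in macrophage-gated nuclei without C. Without CC 2 members rose in adipocyte-gated nuclei (2.22% against 1.46%). Without C 11 rose in macrophage-gated nuclei (11.8% against 12.4%) and 5 in progenitor-gated nuclei (5.62% against 5.56%), and without CCC 5 rose in progenitor-gated nuclei (5.62% against 6.88%). The share of members thus lay above that of all genes in the full comparisons but not in adipocyte-gated nuclei without H or HH, in macrophage-gated nuclei without C, H or HH, nor in progenitor-gated nuclei without CCC, H or HH. With the library set as a covariate 6 rose in adipocyte-gated nuclei (6.67% against 2.58%), 13 in macrophage-gated nuclei (14% against 7.59%) and 0 in progenitor-gated nuclei (0.868% of all genes). The member medians were higher than without it, at 0.79, 0.94 and 0.99 in adipocyte-, macrophage- and progenitor-gated nuclei. Chow alone had libraries in both sets, C in S075 and CC and CCC in S019. The set term thus rested on C against CC and CCC, where set and age cannot be told apart. In effect this fit set H and HH against C. With no upper limit on genes per nucleus and no doublet removal 5 rose in progenitor-gated nuclei (5.49% against 8.34%). With CCH and HCH counted as HFD, 0 members and 0 of all genes passed the edgeR test in each of the 3 classes.

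Ndufaf4, an assembly factor of complex I on chromosome 4 (24898083 to 24905001, GRCm38), rose the most in adipocyte-gated nuclei of the members with over 20 CPM there. In adipocyte-gated nuclei it was at 35.0, 21.0 and 34.3 CPM on chow (C, CC, CCC), against 185 and 184 CPM on HFD (H, HH). After WL it was at 21.5 and 43.3 CPM (HC, HHC), and it was at 51.8 CPM in CCH and 55.3 CPM in HCH, so both long HFD libraries stood apart from all others. The log2 fold change, HFD over chow, was 2.40 ± 0.31 (SE) with an edgeR adjusted p of 0.00677. Ndufaf4 rose by 2.24 ± 0.33 in macrophage-gated and by 1.66 ± 0.35 in progenitor-gated nuclei. HCH, which was close to H and HH in the summed level of the family, was close to CCH for Ndufaf4.

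Among the accessory subunits of complex I, 5 rose in adipocyte-gated nuclei. Ndufa13, a membrane subunit also linked to cell death, was at 8.28, 9.93 and 16.2 CPM in C, CC and CCC, at 48.6 and 50.9 in H and HH, at 7.25 and 29.1 in HC and HHC, at 15.2 in CCH and at 57.7 in HCH. It rose by 1.96 ± 0.43 (adjusted p = 0.0265), and by 2.37 in macrophage-gated and 2.60 in progenitor-gated nuclei, the largest rise there of a member that passed the test. Ndufa13 overlaps Yjefn3 on the same strand, so its counts are uncertain. Ndufa6 was at 15.5 to 22 CPM on chow and at 66.8 and 65.5 CPM in H and HH, with 28.0 in HHC, 15.2 in CCH and 38.3 in HCH, and it rose by 1.71 ± 0.31 (adjusted p = 0.0154). Ndufb3 was at 84.8, 43.7 and 45.3 CPM on chow and at 169 and 226 CPM on HFD, and it rose by 1.53 ± 0.40 (adjusted p = 0.0434). Ndufb10 (1.30) and Ndufa2 (1.28) were the others. In macrophage- and progenitor-gated nuclei Ndufb11 (1.69 and 1.45) and Ndufa11 (1.42 and 1.56) also rose.

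None of the 7 core subunits of complex I, which carry the flavin and the iron-sulfur clusters, passed the test in any of the 3 classes, and their median log2 fold changes were 0.27, 0.11 and 0.31 in adipocyte-, macrophage- and progenitor-gated nuclei. Ndufs4, an accessory subunit with a long gene, was at 170, 133 and 130 CPM on chow and at 163 and 151 CPM on HFD in adipocyte-gated nuclei, with overlapping groups. Complex II had no member called either, with medians of −0.37, 0.11 and −0.14. Sdha, its flavoprotein, was at 151, 91.7 and 108 CPM in C, CC and CCC and at 112 and 86.1 CPM in H and HH, and Sdhc, a membrane anchor, was at 64.1, 38.1 and 44.7 CPM on chow against 34.0 and 37.4 CPM on HFD.

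Complex III gave 3 of its 8 subunits in adipocyte-gated nuclei. Uqcr10 was at 15.7, 13.2 and 16.8 CPM on chow, 54.7 in H and 52.0 in HH, at 8.12 and 24.0 after WL (HC, HHC), at 10.4 in CCH and at 53.6 in HCH. It rose by 1.60 ± 0.35 (adjusted p = 0.0258). Uqcrfs1, the Rieske iron-sulfur protein, rose by 1.67 ± 0.41, from 9.26, 6.93 and 9.02 CPM on chow to 35.2 and 27.6 CPM on HFD, and Uqcrq rose by 1.59 ± 0.26. Both HFD libraries lay above all other libraries for Uqcrfs1, whereas Uqcr10 was as high in HCH.

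In complex IV, Cox8a was at 30.0, 54.5 and 63.1 CPM on chow, 136 and 149 on HFD, 33.1 and 74.9 after WL, 36.9 in CCH and 133 in HCH. It rose by 1.37 ± 0.33 (adjusted p = 0.0331). Cox7c rose by 1.40. Cox8b, the isoform of heart, skeletal muscle and brown fat, had the largest fold change of the members called, 3.71 ± 0.96 (adjusted p = 0.0412), but on few molecules: 5, 0 and 6 UMIs on chow (C, CC, CCC), 8 and 13 on HFD (H, HH), 2 and 1 after WL (HC, HHC), 3 in CCH and 4 in HCH. It passed the filter on low counts only through H and HH, where it was high, so its p-value is no support for a rise. Cox5b was at 6.90, 9.70 and 20.2 CPM on chow and at 52.2 and 32.5 CPM on HFD in adipocyte-gated nuclei, where it missed the threshold (1.63 ± 0.47, adjusted p = 0.058), and it rose by 1.73 in macrophage-gated nuclei. The single call downwards, Cox7b2 in macrophage-gated nuclei (−4.66), rested on library C, with 2.75 CPM there and no UMI in CC or CCC, and it was lost without that library. In complex V, Atp5j2 rose by 1.14 in adipocyte-gated, 1.17 in macrophage-gated and 1.17 in progenitor-gated nuclei, Atp5g1, which encodes a copy of the c-ring subunit, rose by 2.09 in macrophage-gated nuclei, and Atp5md rose by 1.00 and 1.19 in macrophage- and progenitor-gated nuclei.

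**Figure D2:**
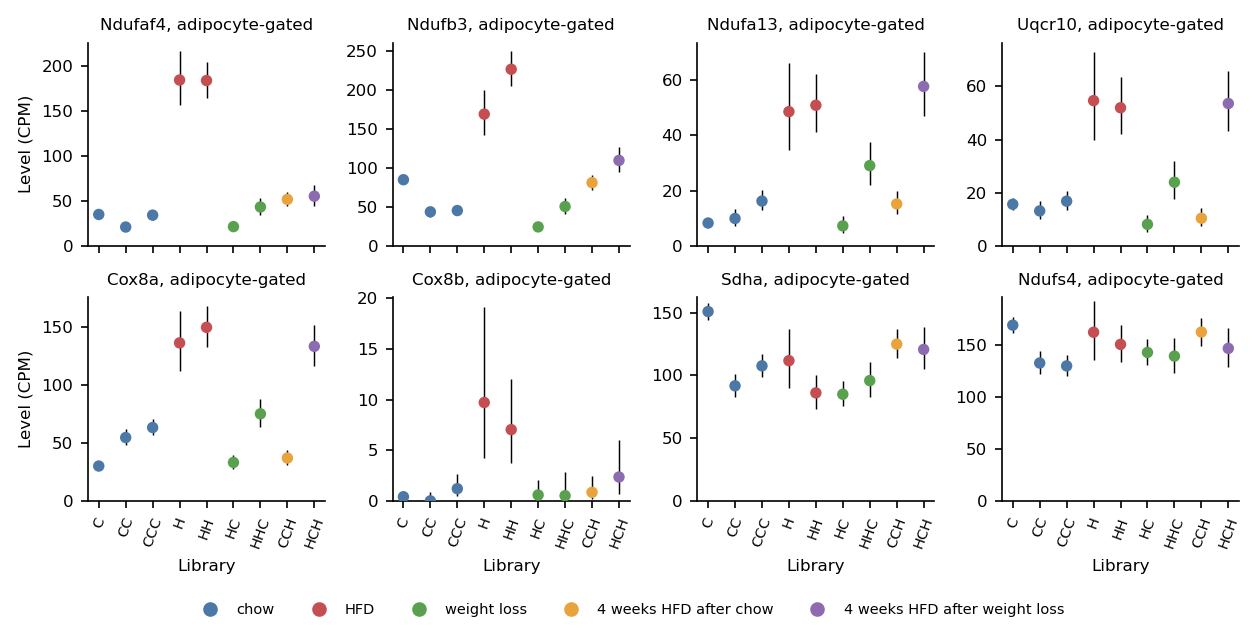
Level (CPM) of 8 named members in adipocyte-gated nuclei of each library, coloured by diet state, with exact 95% Poisson intervals that cover counting error only. Ndufaf4 is at 185 and 184 CPM in H and HH and at 55.3 in HCH, whereas Uqcr10 is at 54.7, 52.0 and 53.6 CPM in these 3 libraries, and Sdha shows no separation of chow (91.7 to 151 CPM) from HFD (86.1 and 112 CPM).

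Over the 3 classes 28 members rose in at least 1, and Atp5j2, Ndufa13, Ndufa6, Ndufaf4 and Uqcr10 rose in each. The matching shares of all genes were not counted, so these counts do not set the members apart from other genes. The classes come from the same libraries and share free RNA, so this is not independent evidence. The test needed large changes: in counts simulated for the adipocyte comparison, 41.7% of genes changed 4-fold were recovered and 3.16% of genes changed 2-fold.

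**Figure D3:**
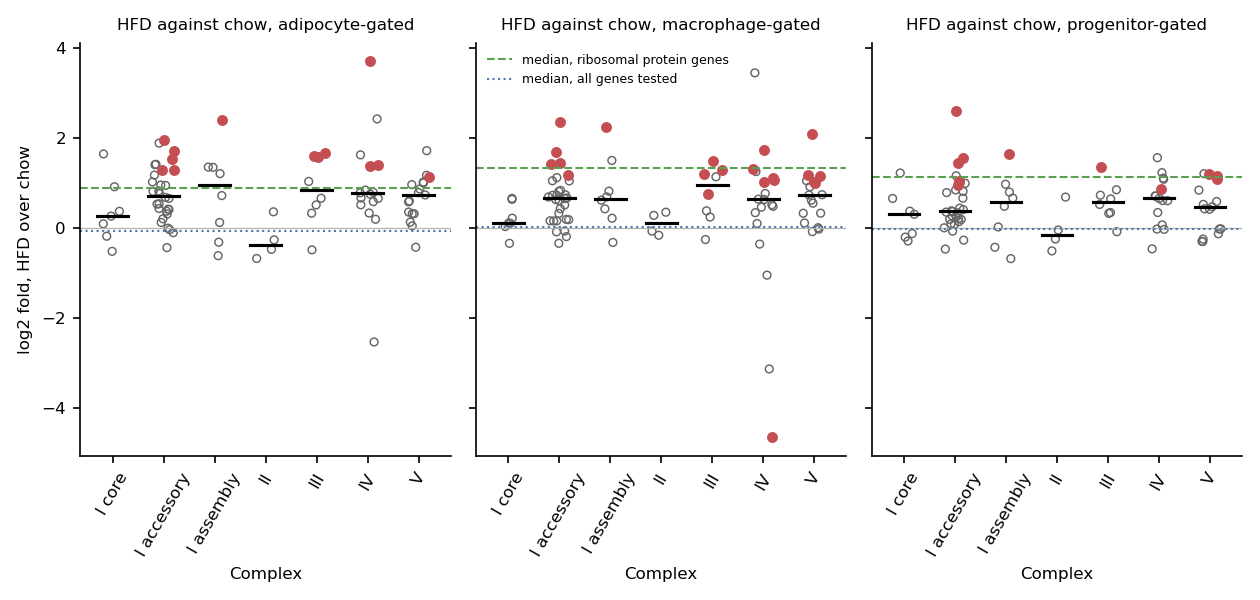
Log2 fold change, HFD over chow, of each member tested, grouped by complex and role, in the 3 gated classes; filled red points passed an edgeR adjusted p of 0.05, open points did not, black bars are medians, and dashed and dotted lines are the medians of the ribosomal protein genes and of all genes tested. Points above 0 predominate in each group but complex II, whose medians are −0.37, 0.11 and −0.14.

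Most of the members that rose were short genes. Members span a median of 7333 bases from start to end, against 22405 over the 18592 genes with at least 100 UMIs, and complex II has the longest median of the groups (20715) and complex IV the shortest (3929). Across all 15815 genes tested with a span in adipocyte-gated nuclei, the log2 fold change HFD over chow and the span had a Spearman correlation of −0.44, with −0.42 in macrophage-gated and −0.43 in progenitor-gated nuclei (across genes of the same libraries, which are not independent). Genes under 10 kb had a median of 0.80 in adipocyte-gated nuclei and longer genes −0.26. Members under 10 kb had a median of 0.96 (61 genes) and the longer ones 0.12 (29 genes). All 13 members called were under 10 kb, which is 21.3% of the short members, where 15.5% of all short genes rose. The 13 include Cox8b, which passed the filter on low counts only through H and HH and whose p-value is no support. In macrophage-gated nuclei the corresponding shares were 30.2% of short members and 30.1% of all short genes, and in progenitor-gated nuclei 18.3% and 16.7%. Within bins of span the members were above all genes in the 2 to 5 kb bin of adipocyte-gated nuclei (1.28 against 0.95) and the 5 to 10 kb bin (0.68 against 0.52), the 10 to 20 kb bin (0.40 against 0.13) and over 100 kb (0.01 against −0.64, with 2 members), and below them under 2 kb (1.36 against 1.93) and from 20 to 50 kb (−0.43 against −0.20). The count of members called is thus read against genes of like span, and the part of span in the rise on HFD was not tested.

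**Figure D4:**
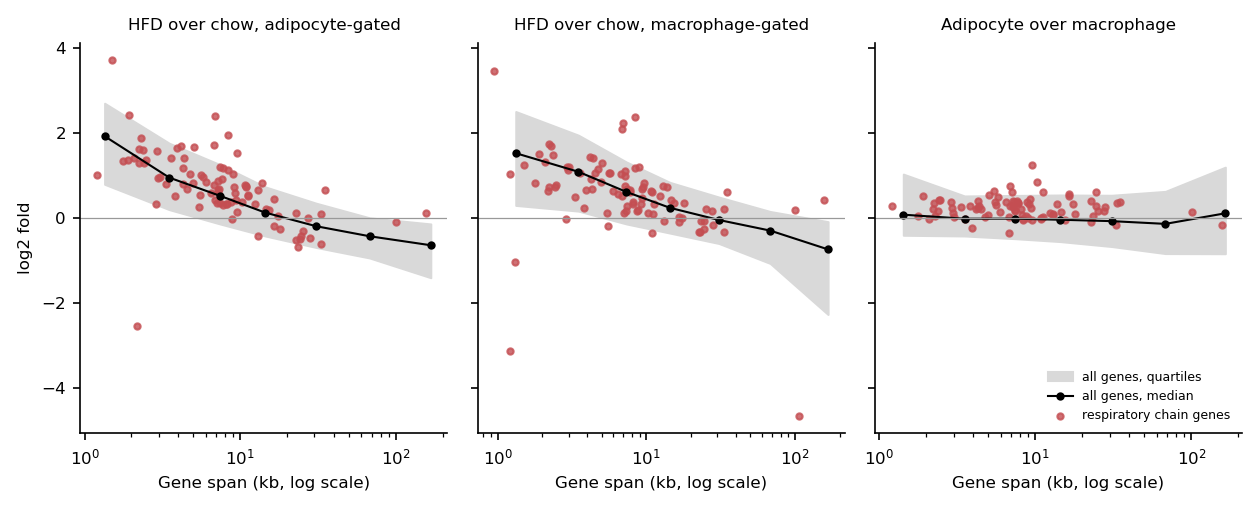
Log2 fold change against gene span (kb, log axis) for HFD over chow in adipocyte- and macrophage-gated nuclei and for adipocyte- over macrophage-gated nuclei; red points are members, the black line is the median of all genes in bins of span and the grey band their quartiles. In both HFD panels the median falls with span (from 1.93 under 2 kb to −0.64 over 100 kb in adipocyte-gated nuclei) and most members follow it, while in the third panel the line stays near 0.

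After WL no member passed the test against chow in adipocyte-, macrophage- or progenitor-gated nuclei. In adipocyte-gated nuclei 0 of the 90 members tested passed the edgeR test in either direction, as did 0% of all genes. There 0 members had an unadjusted p under 0.05 (9.74% of all genes did). DESeq2 called 0 members, where it called 0.708% of all genes higher and 0.651% lower. In macrophage-gated nuclei 0 of 93 passed (6.63% of all genes) and 3 had an unadjusted p under 0.05 (22.5% of all genes), Cox7b2 (−4.04), Atp5g1 (0.90 ± 0.39) and Sdhb (0.49 ± 0.22). In progenitor-gated nuclei 0 of 89 passed (0.994% of all genes) and 3 had an unadjusted p under 0.05 (14.1% of all genes), Atp5g3 (−0.94 ± 0.34), Ndufb3 (−0.63 ± 0.25) and Ndufs1 (−0.52 ± 0.22). DESeq2 called 0 members in these classes too. Of all genes it called 5.95% higher and 4.3% lower in macrophage-gated and 1.76% and 0.892% in progenitor-gated nuclei. Member medians of the log2 fold change, WL over chow, were 0.01, 0.01 and −0.06. They were 0.18, 0.21 and 0.10 without HC and −0.29, −0.33 and −0.35 without HHC, in fits that leave 1 WL library. WL and HFD were compared with the same 3 chow libraries.

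The pair of WL libraries differed from each other. In adipocyte-gated nuclei the summed member level was 0.29 lower on the log2 scale in HC than in CC (difference −0.29, 95% counting interval −0.33 to −0.24) and 0.14 higher in HHC than in CCC (0.09 to 0.18). The same opposite signs were seen in macrophage-gated nuclei (−0.60 and 0.32) and progenitor-gated nuclei (−0.53 and 0.17). In adipocyte-gated nuclei 6 of 84 members were at least 2-fold lower in HC than in CC, where 8.92% of all genes were, and 1 of 88 was at least 2-fold higher in HHC than in CCC, where 6.62% of all genes were. In macrophage-gated nuclei 28 of 84 members were at least 2-fold lower in HC than in CC, where 14.1% of all genes were, and 5 of 87 were 2-fold higher in HHC than in CCC, where 15.9% of all genes were. In progenitor-gated nuclei these counts were 24 of 84, with 8.46% of all genes, and 1 of 87, with 12% of all genes. With no allowance for free RNA in the gate, HHC over CCC was −0.028 and no longer opposite to HC over CC (−0.46) in adipocyte-gated nuclei. HC over CC was smaller in size with no gene limit and no doublet removal, and with TMM factors, outside the interval given (values in the last section). The macrophage markers summed to 2520 CPM in HHC and 972 CPM in CCC in adipocyte-gated nuclei, and to 2272 and 406 CPM in progenitor-gated nuclei, against 745 (HC) and 622 CPM (CC) and 907 and 494 CPM. The adipocyte markers summed to 1780 CPM in HC and 6186 CPM in CC in macrophage-gated nuclei, and to 2541 and 6049 CPM in progenitor-gated nuclei, and to 1114 (HHC) and 2138 CPM (CCC) and 1827 and 2523 CPM. The part of these markers in the differences was not tested. Ribosomal protein genes moved the same way, by −0.23 and 0.32. All 4 of these libraries belong to set S019, and whether the WL libraries differ by more than libraries of 1 state do was not tested.

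Adipocytes were compared with macrophages and progenitors of the same libraries, with the library as a block. Over macrophage-gated nuclei 37 of the 86 members tested were higher in adipocyte-gated nuclei and 0 lower, where 32.4% of all genes were higher, with a member median of 0.23 and a ribosomal protein median of −0.23. Over progenitor-gated nuclei 53 of 86 were higher and 3 lower, where 30.3% of all genes were higher and 31.4% lower, with a member median of 0.34 and a ribosomal protein median of −0.15. With no upper limit on genes per nucleus and no doublet removal, 27 members were higher (30.3%, where 35.3% of all genes were) and 6 lower over macrophages (median 0.09), and 28 were higher (31.5% against 32%) and 10 lower over progenitors (median 0.086). Without the library as a block, 12 members were higher (14% against 26.2%) and 0 lower over macrophages, and 20 higher (23.3% against 22.8%) and 2 lower over progenitors. With no filter on low counts, 16 were higher (17% against 19.5%) and 1 lower over macrophages, and 47 higher (50% against 18%) and 4 lower over progenitors. The share of members higher in adipocytes was therefore not above that of all genes over macrophages under any of these 3 settings, and over progenitors it was above it with no filter on low counts and near it under the other two. The summed member level was higher in adipocyte-gated nuclei in 8 of 9 libraries against either class, by 0.20 to 0.43 over macrophages and 0.19 to 0.58 over progenitors on the log2 scale, and lower in CC (−0.11 and −0.06), the library whose macrophage-gated nuclei held the most adipocyte marker RNA. The folds are small and lay near the same value for short and long members (medians of 0.26 and 0.15 over macrophages). All 12 adipocyte markers were detected in the macrophage- and progenitor-gated nuclei of each library, and the part of adipocyte marker RNA in these folds was not tested. The order of adipocytes and other classes differed by library: of the classes with at least 50 nuclei in a library, adipocyte-gated nuclei had the highest sum in C and H. Smooth muscle and pericyte nuclei had it in CCC, HH, HHC and HCH (5656, 4762, 6140 and 5691 CPM). In CCH it was highest in T and NK nuclei (2835 CPM), and in CC and HC in endothelial-gated nuclei (4938 and 3887 CPM). These classes differed by up to 2.73-fold within a library (CCC). Endothelial-gated nuclei, from 1988 CPM in C to 5497 CPM in HCH, were below adipocyte-gated nuclei in C and H and within counting error of them in HH. They exceeded them in the other 6 libraries, with the largest ratio in CC (4938 against 2429 CPM).

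Ndufb3 led both comparisons, 1.25 ± 0.16 over macrophages and 1.23 ± 0.18 over progenitors. In C it was at 84.8 CPM in adipocyte-gated, 30.2 in macrophage-gated and 30.8 in progenitor-gated nuclei, and in HH at 226, 59.7 and 51.2 CPM. Ndufs3, a core subunit of complex I, followed (0.85 ± 0.10 and 0.95 ± 0.08), then Ndufaf4 (0.75 and 0.71). Of the core subunits of complex I 5 of 7 were higher over either class. Atp5b and Atp5c1, the β and γ subunits of the catalytic head of ATP synthase, were 0.62 and 0.61 higher over macrophages and 0.69 each over progenitors. Complex II was higher in all 4 subunits over progenitors, led by Sdhb (0.89 ± 0.11) and Sdhd (0.83 ± 0.18), and in Sdha alone over macrophages (0.26). The 3 members lower in adipocyte- than in progenitor-gated nuclei were all assembly factors of complex I, Ndufaf5 (−0.57), Ndufaf7 (−0.45) and Ndufaf2 (−0.30). This contrast had more power than that of diet, and in simulated counts for it 80.8% of 2-fold changes were recovered.

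Genes of the same pathway outside the family were read from lists. Of all genes, 32.4% were higher and 35.3% lower in adipocyte- than in macrophage-gated nuclei, and 30.3% were higher and 31.4% lower than in progenitor-gated nuclei. Of the 13 enzymes of the tricarboxylic acid cycle, which feeds the chain with NADH and succinate, 10 were higher and 1 lower (Ogdh, −0.32) in adipocyte- than in macrophage-gated nuclei and 13 were higher than in progenitor-gated nuclei, among them Cs (1.02 and 1.08) and Idh3a (2.30 and 1.91). Of the 14 regulators 7 were higher and 4 lower over macrophages and 7 higher and 2 lower over progenitors, including the coactivators Ppargc1a (2.94 and 0.81) and Ppargc1b (0.95 and 2.90) and the receptor genes Esrrg (3.37 and 3.34) and Esrra (0.63 and 1.58), and Nrf1 was among the lower ones (−0.72 and −0.56). The uncoupling protein genes went both ways, with Ucp3 higher (3.79 and 4.68) and Ucp2 lower than in macrophages (−2.53).

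On HFD these lists moved less evenly. Of all genes 7.08% rose and 3.4% fell in adipocyte-gated nuclei, and 15.5% of genes under 10 kb rose. The lists were not set against genes of like span. In adipocyte-gated nuclei 0 of 14 regulators passed the test (median −0.26), and Ppargc1a had a log2 fold change of −0.72 ± 0.40 (adjusted p = 0.239). Of the tricarboxylic acid cycle 1 of 13 rose, Idh3b (1.39), and the list median was −0.07. The list of cytochrome c and other assembly factors had 11 of 38 higher and 1 lower with a median of 0.66, near that of the members. Cycs, which encodes the electron carrier cytochrome c, rose by 2.20 ± 0.36, Sdhaf1, an assembly factor of complex II, by 2.64 and Coa3, an assembly factor of complex IV, by 2.39, and Nubpl, an iron-sulfur protein for complex I, fell by 1.13. In macrophage-gated nuclei Idh3b rose (1.55) while Fh1 (−0.87) and Suclg2 (−0.85) fell, Ucp2 rose (1.17), and Esrrg (−3.96) and Nrip1 (−1.77), both abundant in adipocytes, fell. The adipocyte marker RNA in these nuclei was lower on HFD as well (341 and 504 CPM against 2138 to 6186), and its part in the falls of Esrrg and Nrip1 was not tested. Slc25a5, the ADP/ATP carrier, rose in adipocyte- (2.18) and macrophage-gated nuclei (1.95). Ucp1 did not pass the filter on low counts.

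Several complex IV subunits have paralogs that differ between tissues. Cox4i2, the isoform of lung and smooth muscle, was near 1 CPM in adipocyte-, macrophage-, progenitor- and mesothelial-gated nuclei over all libraries together, at 3.48 in endothelial-gated nuclei and at 26.3 CPM (66 UMIs) in nuclei gated as smooth muscle and pericyte, called mural from here on. In mural nuclei it was at 6.48, 28.5 and 48.4 CPM in C, CC and CCC, 51.6 and 76.3 in H and HH, 5.55 and 46.0 in HC and HHC, 43.5 in CCH and 90.6 in HCH, on 3 to 20 UMIs a library. It was higher there than in each of the 5 other classes compared in 9 of 9 libraries, and the pooled log2 ratio to endothelial nuclei was 2.92 (95% counting interval 2.30 to 3.56). Mural nuclei numbered 23 (H) to 233 (HC) a library. C and HC held 617213 and 900617 UMIs of all genes in this gate, against 58114 to 220692 in the others, so pooled mural values lean on C and HC. Ndufa4l2, a paralog of Ndufa4 known to be induced in hypoxia, followed the same classes, at 40.2 CPM (101 UMIs) in mural, 6.24 in endothelial and 1.43 in adipocyte-gated nuclei. In mural nuclei it was at 8.10, 66.6 and 80.7 CPM in C, CC and CCC, 224 and 66.8 in H and HH, 3.33 and 117 in HC and HHC, 21.7 in CCH and 131 in HCH. It exceeded the endothelial level in 8 of 9 libraries and that of the 4 other classes in 9 of 9. Ndufa4l2 overlaps Shmt2 on the other strand. By contrast Cox4i1 and Ndufa4, the common isoforms, were at 92.8 and 46.2 CPM in mural and at 64.8 and 36.4 CPM in adipocyte-gated nuclei.

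C and HC were the low libraries for both isoforms, and their mural nuclei differed in makeup. In C and HC Myh11, a smooth muscle myosin, was at 5326 and 8479 CPM, against 1009 to 2157 in the other 7 libraries, and Myocd was also highest there (1170 and 1159 CPM), whereas Rgs5 (194 and 109 CPM), Kcnj8 (11.3 and 17.8), Abcc9 (267 and 296) and Notch3 (565 and 335) were at their lowest. The other markers of the 9 in the list, Acta2, Tagln and Cspg4, did not set C and HC apart, with Acta2 at 1516 and 1364 CPM there and at 362 to 2367 CPM in the other libraries. The levels of Cox4i2 and Ndufa4l2 by diet are therefore not compared. Cox6b2, the testis isoform of Cox6b1, was highest in mesothelial-gated nuclei, at 16.4 CPM (123 UMIs) over all libraries and at 5.47 to 26.7 CPM in single ones. It was higher there than in each of the other 5 classes in 9 of 9 libraries. Cox6a2, Cox7a1, Cox8b and Cox8c, the heart, muscle or testis isoforms, were under 2 CPM in adipocyte-gated nuclei over all libraries together, and the common isoforms were at 33.3 CPM for Cox6a1, 27.7 for Cox7a2 and 55.1 for Cox8a. These are UMI levels without adjustment for gene length.

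**Figure D5:**
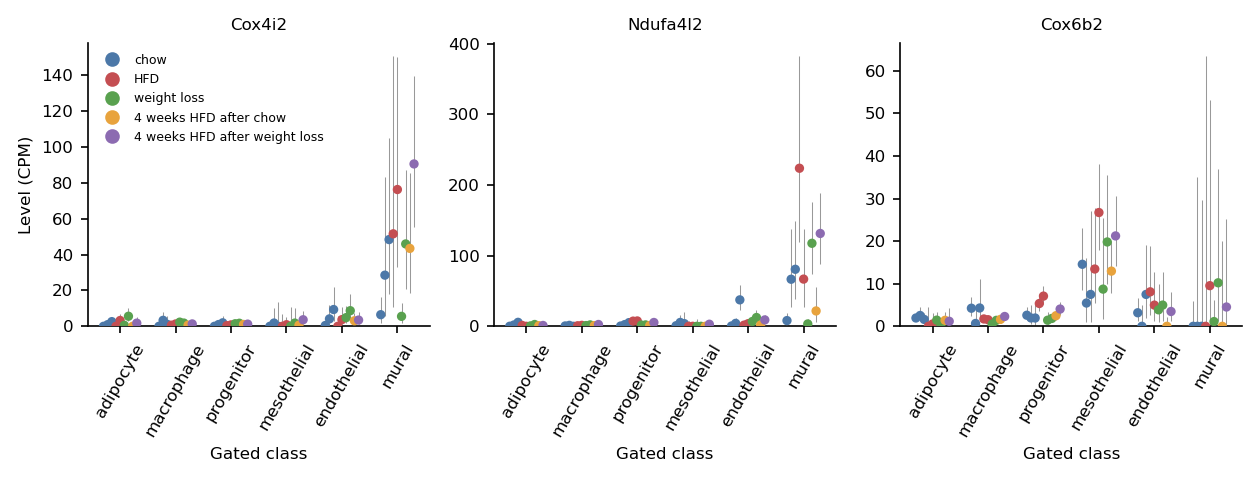
Level (CPM) of Cox4i2, Ndufa4l2 and Cox6b2 in 6 gated classes (mural is the smooth muscle and pericyte gate); each point is 1 library in the order C, CC, CCC, H, HH, HC, HHC, CCH, HCH, coloured by diet state, with exact 95% Poisson intervals that cover counting error only. Cox4i2 and Ndufa4l2 are highest in mural nuclei, on 3 to 29 UMIs a library there, and Cox6b2 is highest in mesothelial nuclei, at 5.47 to 26.7 CPM.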

How the data were processed

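Single-nucleus RNA was measured in 9 libraries of epiAT. The authors deposited raw UMI counts per gene and barcode, made with Cell Ranger 6.1.2 on mm10 with intronic reads included (Seurat 4.1.0 is also in the submitters' processing notes), and the deposited counts hold none of their later filters. Nuclei with 500 to 3000 genes and at most 40000 UMIs were kept. Doublets were removed with Scrublet (scanpy 1.11.5, Python 3.11.15), and where its threshold marked under 0.5% of nuclei, the highest scores were removed at 0.8% per 1000 nuclei. The second rule was used in CC, CCC, HC and HHC, the whole of set S019, and the threshold in all libraries of set S075. The rule thus differed between the HFD libraries and the chow libraries CC and CCC, and its part alone was not tested.

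Nuclei were gated with marker lists for 12 classes. The gate first planned, by markers detected, took in nuclei that held free adipocyte RNA, and was replaced after the data were seen by one that asks for at least 3 markers detected and marker UMIs at least 2 times those expected from free RNA (Poisson p under 0.001), for 1 class only. Counts were summed per library and class and tested with edgeR 4.0.16 (R 4.3.3; TMM factors, minimum count 10, minimum total 15, quasi-likelihood, Benjamini-Hochberg adjustment at 0.05), with all 9 libraries in 1 fit for diet. The tests were checked on simulated counts. Pairs of libraries used genes with at least 20 UMIs over both. Intervals are exact 95% Poisson or conditional binomial ones, and these intervals cover counting error only.

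The members and the lists of markers and pathway genes were chosen with earlier results of these data known. Members were named by fixed rules: paralog isoforms, the complex II subunits, the 6 with most UMIs in chow adipocyte-gated nuclei, and per comparison up to 6 called with the largest rise and fall or, with fewer than 3 called, the 3 with the lowest p. Other named members were chosen after their values were seen. Gene spans came from GENCODE on GRCm38, which all 94 members matched. Alternatives were DESeq2 1.42.0, other size factors, filters, gates, nuclei limits and totals, the library set as a covariate, and leaving out each library.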

Additional observations from a re-analysis of the deposited data

Results flagged for a closer look

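The WL libraries HC and HHC moved in opposite directions from their age-matched chow libraries in the summed level of the 94 genes. On the log2 scale HC minus CC was −0.29 in adipocyte-gated, −0.60 in macrophage-gated and −0.53 in progenitor-gated nuclei, and HHC minus CCC was 0.14, 0.32 and 0.17 in the same classes. With no allowance for free RNA in the gate HHC minus CCC was −0.028 in adipocyte-gated nuclei, so the signs were no longer opposite there. HC minus CC was smaller in size in these nuclei with no gene limit and no doublet removal, and with TMM factors (values below). Macrophage markers were at 2520 CPM in HHC and 972 CPM in CCC in adipocyte-gated nuclei and at 2272 and 406 CPM in progenitor-gated nuclei. Adipocyte markers were at 1780 CPM in HC and 6186 CPM in CC in macrophage-gated nuclei and at 2541 and 6049 CPM in progenitor-gated nuclei. The part of these markers was not tested. Each difference is between single pooled libraries, and the difference between the pairs was not tested.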

How the results depend on the processing

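With no filter on low counts, members called on HFD rose to 21, 32 and 20 in adipocyte-, macrophage- and progenitor-gated nuclei (22.3%, 33% and 21.3% of members were higher, and 7.5%, 13.5% and 9.19% of all genes), 1 fell after WL in progenitor-gated nuclei, and 17 were called between adipocytes and macrophages (17% of members higher, 19.5% of all genes). With the library set as a covariate 6 rose on HFD in adipocyte-gated, 13 in macrophage-gated (where 1 fell) and 0 in progenitor-gated nuclei, with higher member medians of 0.79, 0.94 and 0.99. This fit in effect set H and HH against C, the only chow library of set S075. With CCH and HCH counted as HFD 0, 0 and 0 were called (0 of all genes too), and with no gene limit and no doublet removal 5 in progenitor-gated nuclei. Leaving out 1 library gave 0 to 16, 3 to 29 and 0 to 8 calls on HFD in the 3 classes: without H 0, 4 and 1, without HH 0, 3 and 0, without CC 2 in adipocyte-gated nuclei, without C 11 in macrophage-gated and 5 in progenitor-gated nuclei, and without CCC 5 in progenitor-gated nuclei. WL gave 0 calls in each class whichever library was left out. Without the replicate block of libraries 12 were called between adipocytes and macrophages and 22 between adipocytes and progenitors. The labels give the diet libraries no replicate numbers, and no fit with pairs of like age as a block was run.

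The summed level of H over C in adipocyte-gated nuclei was 0.59 on the log2 scale with no gene limit and no doublet removal, 0.79 with mitochondrial genes and Malat1 in the total and 0.50 with TMM factors. HH over CC was 0.60, 0.77 and 0.60 under these settings, 0.92 with a 3-fold marker excess and 0.62 with no allowance for free RNA. HC over CC was −0.12 with no gene limit, −0.16 with TMM factors, −0.21 with a 3-fold excess and −0.46 with no allowance for free RNA. HHC over CCC turned to −0.028 with no allowance for free RNA, and HCH over CCH was 0.34 with no gene limit, 0.60 with TMM factors and 0.55 with no allowance. The gates with a 3-fold excess and with no allowance were added as alternatives after the data were seen. Of 480 values of named members under alternatives, 397 kept their direction and side of the threshold, 81 lost the threshold, 1 gained it and 1 reversed, Cox7b2 after WL in macrophage-gated nuclei (2.30 with the set as a covariate). The causes were not tested.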
